A study of Mus musculus with 10 samples.

Results

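Expression of 9 genes that mark naive or memory B cells as against germinal center B cells was followed across 3 Zbtb38 genotypes. The genes were Klf2, Hhex, Tle3, Ski, Fcer2a, Cd38, Cd55, Nt5e and Il9r, taken by symbol as known markers from the 22380 genes quantified. The RNA came from germinal center B cells of C57Bl6/N mice, sorted as NP+ GL7+IgD- cells 2 weeks after intraperitoneal injection of 100 μg NP-OVA in Alhydrogel, with 1 library per mouse. There were 2 WT mice (Zbtb38fl/fl without Cre), 2 HET mice (Zbtb38fl/+ x Vav-Cre) and 6 KO mice (Zbtb38fl/fl x Vav-Cre). The WT mice thus carried floxed alleles and were the only mice without Cre, and the floxed allele, which descended from a single founder, flanks the coding exon of Zbtb38. Vav-Cre is active in hematopoietic cells at large and not in B cells alone. Ages were not in the sources used here.

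ZBTB38 is a BTB zinc finger protein known to bind methylated CpG sites in DNA. After antigen contact, follicular B cells that enter a germinal center lose many surface proteins and transcription factors of resting naive cells, divide and mutate their immunoglobulin genes. Cells that leave as memory B cells regain much of the resting program. Among the regulators, KLF2 is a zinc finger factor of quiescence and lymphocyte recirculation, HHEX a homeobox repressor required for memory B cell formation, TLE3 a Groucho family corepressor that acts with HHEX, and SKI a corepressor that binds SMAD proteins. Among the surface proteins, CD23 (Fcer2a) is the low-affinity IgE receptor of follicular B cells, CD38 an enzyme that consumes NAD, CD55 a brake on complement, CD73 (Nt5e) the enzyme that makes adenosine from AMP, and IL-9R a cytokine receptor found on memory B cells. CD38 is low on mouse germinal center B cells, while CD73 is present on many of them as well as on memory cells.

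Total estimated counts were between 26612431 and 41059082 per library. Zbtb38 was at 156.8 ± 7.02 CPM (counts scaled to a common library size) in WT (SD, n = 2), 111.6 ± 8.23 in HET (SD, n = 2) and 31.7 ± 10.8 in KO (SD, n = 6), in the order of the labels. The 15 germinal center markers, Bcl6 among them, were each detected, with sums of 3440 to 6292 CPM across the 10 libraries. Ighd, the heavy chain of IgD, was nonetheless detected in cells sorted as IgD-, with a mean of 113.1 CPM. KO replicate 6 stood apart. On the first principal component, with 31.6% of the variance, its value was 79.3, and that of the next KO library was 0.733. The 4 Y-linked genes summed to 209.7 to 279.3 CPM in WT, to 1.99 to 2.68 CPM in HET and to 4.17 to 257.2 CPM in KO, where replicates 3, 4 and 6 were low and 1, 2 and 5 high. Between WT and HET, genotype and the level of Y-linked genes therefore cannot be told apart.

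All 9 genes were detected in every library, at levels that spanned a wide range. Per transcript length, Fcer2a was the highest, with a mean of 203 TPM (values scaled for transcript length) over the 10 libraries, at percentile 94.9 of the 17488 genes with counts. Klf2 followed at 80.4 TPM, then Cd55 at 41.7, Cd38 at 40.3, Hhex at 30.1, Nt5e at 27.8, Il9r at 18.0, Tle3 at 6.55 and Ski at 0.338 TPM, the last at percentile 27.8. Fcer2a was above Klf2 and Klf2 above Cd55 in all 10 libraries. Cd55 was above Cd38 in 5 libraries and Hhex above Nt5e in 5, so these neighbors did not differ beyond their spread, and Cd38 was above Hhex in 8. The order below Nt5e held in all 10.

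**Figure D1:**
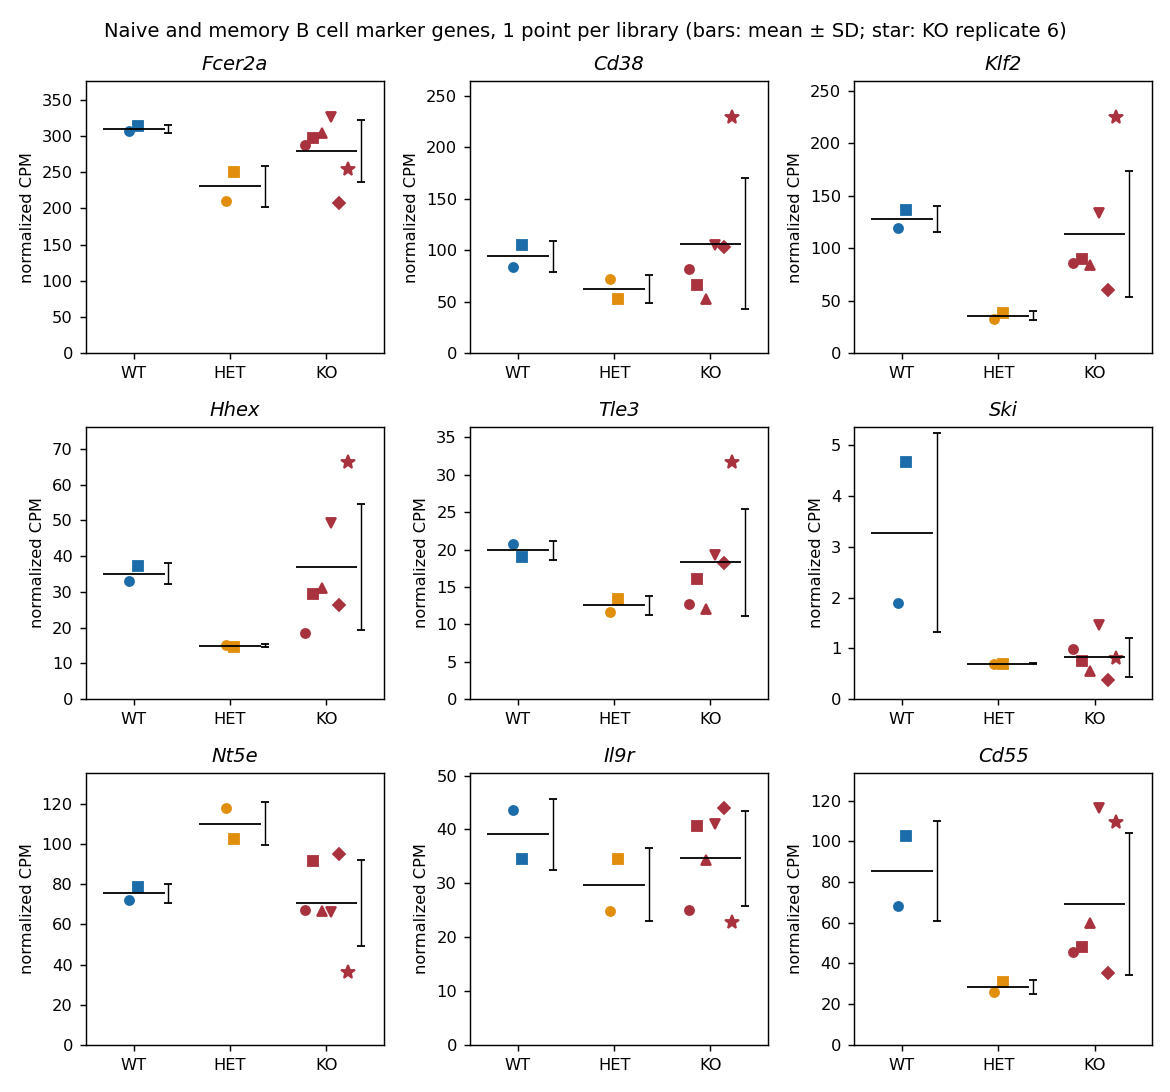
TMM-normalized CPM (y axis, linear from 0) of each of the 9 genes in every library, grouped by genotype on the x axis. Points are mice, horizontal lines are means and bars the SD, and the star marks KO replicate 6. For Klf2, Hhex and Cd55 both HET libraries sit below every KO and WT library, for Nt5e both sit above them, and KO replicate 6 is highest for Cd38, Klf2, Hhex and Tle3.

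Of the 4 regulators, Klf2 and Hhex were lowest in HET. Klf2 was at 119.4 and 136.5 CPM in WT, at 32.6 and 38.7 CPM in HET, and between 60.3 and 225.5 CPM in KO with a median of 88.2. The HET libraries were the lowest of all, and the WT libraries lay inside the KO range. Hhex was at 33.1 and 37.1 CPM in WT, at 15.2 and 14.6 CPM in HET, and between 18.6 and 66.2 CPM in KO with a median of 30.3. Again both HET libraries were under all others, and WT and KO overlapped.

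Tle3, the partner of HHEX, was at 20.8 and 19.0 CPM in WT and at 11.7 and 13.4 CPM in HET. In KO it was between 12.0 and 31.7 CPM with a median of 17.1. HET and KO overlapped, while both HET libraries were below both WT libraries. Ski had few counts. It was at 1.90 and 4.67 CPM in WT, at 0.70 and 0.69 CPM in HET, and between 0.37 and 1.47 CPM in KO with a median of 0.784, which corresponded to 79 and 135 estimated counts in WT, 22 and 19 in HET and 11 to 47 in KO. Both WT libraries were above all others. In CPM, though not in ratio, they differed from each other by more than the other 8 libraries did among themselves. They also differed in the transcript used, since Salmon gave 94.2% of the Ski counts of WT replicate 1 to ENSMUST00000030917.5 and 0% to it in the other 9 libraries, where all counts went to ENSMUST00000084103.9.

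Among the surface proteins, Cd55 had the pattern of Klf2 and Nt5e its inverse. Cd55 was at 68.2 and 102.6 CPM in WT, at 26.2 and 31.0 CPM in HET, and between 35.1 and 116.3 CPM in KO with a median of 54.0. Nt5e was at 72.3 and 78.8 CPM in WT, at 117.9 and 102.6 CPM in HET, and between 36.3 and 95.3 CPM in KO with a median of 67.0. The HET libraries were thus at the bottom for Cd55 and at the top for Nt5e, without overlap with WT or KO. Cd38 was at 83.8 and 105.0 CPM in WT and at 72.2 and 52.7 CPM in HET. It was between 53.0 and 230.0 CPM in KO with a median of 92.8. The top value belonged to KO replicate 6, which was 2.80-fold above the mean of the other KO libraries.

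Fcer2a and Il9r varied least. Fcer2a was at 306 and 314 CPM in WT, at 210.3 and 250.7 CPM in HET, and between 207.5 and 326.9 CPM in KO with a median of 292. Il9r was at 43.7 and 34.4 CPM in WT, at 24.9 and 34.5 CPM in HET, and between 22.8 and 44.0 CPM in KO with a median of 37.5. Across all libraries the highest value was 1.58 times the lowest for Fcer2a and 1.93 times for Il9r, against 6.92 times for Klf2. For both genes, HET overlapped with KO.

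Between WT and KO, which differed in the presence of Cre as well as in the loss of ZBTB38, 8 of the 9 genes overlapped between groups. The log2 fold changes, given throughout as the first group over the second, were 0.18 for Klf2 (standard error 0.403), -0.07 for Hhex (0.405), 0.12 for Tle3 (0.350), 0.15 for Fcer2a (0.167), -0.18 for Cd38 (0.457), 0.30 for Cd55 (0.426), 0.10 for Nt5e (0.294) and 0.18 for Il9r (0.270). Each was smaller than its standard error, which leaves room for sizeable differences in either direction for Klf2, Hhex, Cd38 and Cd55. Ski was the exception, with a log2 fold change of 1.99 (standard error 0.660) and WT above KO in every library. Its p from edgeR was 0.0124 as fitted and 0.999 once adjusted by Benjamini-Hochberg over 14203 genes. Without WT replicate 2 the log2 fold change of Ski was 1.20, and with limma on log2(TPM + 1) it was 0.62.

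In the edgeR test 0 of the 9 genes had an adjusted p under 0.1, against 0.00704% of all genes tested (Zbtb38 alone), and 1 had an unadjusted p under 0.05, against 2.19%. DESeq2 and limma on TPM also called 0 of the 9. Of the 9, only Ski did not overlap between the groups, against 6.58% of all genes. The median log2 fold change of the 9 was 0.149, and that of all genes was -0.0141. Without KO replicate 6 the signs of Cd38, Hhex and Nt5e turned, to 0.20, 0.18 and -0.03.

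With WT and HET together as controls, 0 of the 9 genes had an adjusted p under 0.1, against 0.00749% of the 13347 genes tested, and 0 had an unadjusted p under 0.05 in edgeR, against 6.3%. DESeq2 and limma called 0 as well. No gene of the 9 was free of overlap between controls and KO, against 1.52% of all genes. The log2 fold changes were -0.47 for Klf2 (standard error 0.445), -0.56 for Hhex (0.374), -0.18 for Tle3 (0.285), 1.26 for Ski (0.641), -0.05 for Fcer2a (0.147), -0.45 for Cd38 (0.354), -0.28 for Cd55 (0.426), 0.40 for Nt5e (0.232) and -0.01 for Il9r (0.218). The signs of Fcer2a, Tle3 and Il9r, and with a replicate block those of Cd38, Hhex and Cd55, turned under other settings. Ski was 0.41 without WT replicate 2 and 0.30 with limma on log2(TPM + 1). For Klf2, Hhex, Cd55 and Nt5e the control group joined WT libraries inside the KO range with HET libraries outside it.

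**Figure D2:**
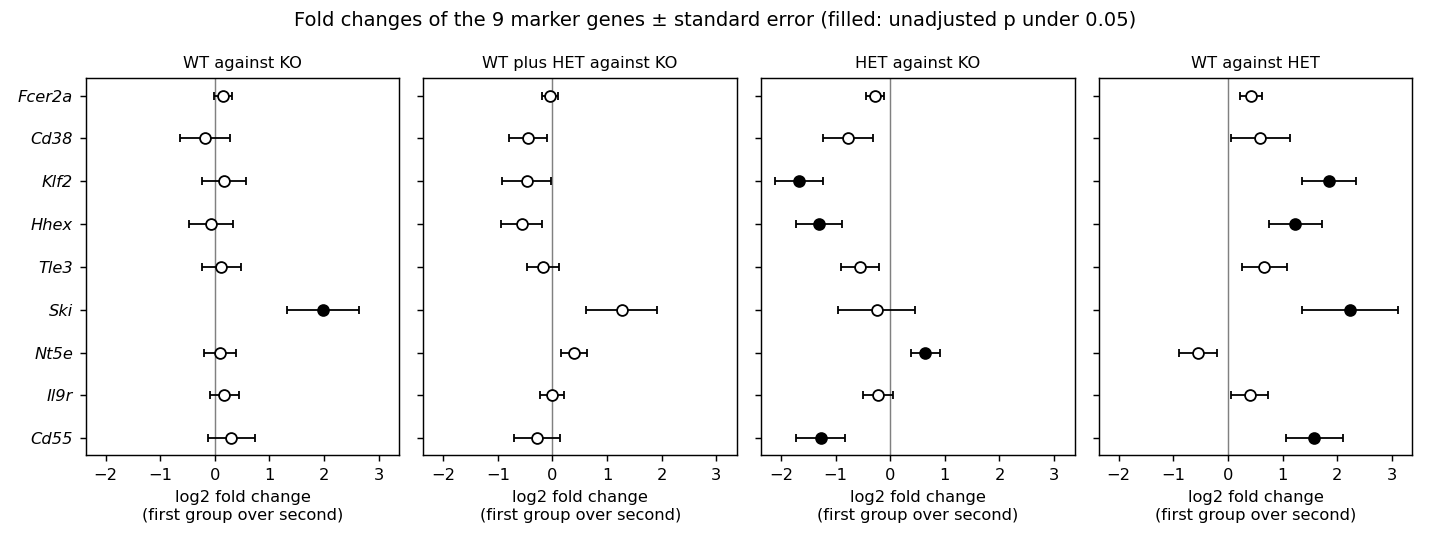
Log2 fold change (x axis) of each of the 9 genes (y axis) with its standard error in the 4 comparisons, first group over second. Filled points have an unadjusted p under 0.05 in edgeR: Ski in WT against KO, Klf2, Hhex, Nt5e and Cd55 in HET against KO, and Klf2, Hhex, Ski and Cd55 in WT against HET.

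Between HET and KO, 4 of the 9 genes had an unadjusted p under 0.05, against 10.2% of the 14354 genes tested, and the same genes were free of overlap, against 13.9%. Klf2 was lower in HET, with a log2 fold change of -1.67 (standard error 0.435), or 0.315 times the KO mean (edgeR adjusted p = 0.315). Hhex had a log2 fold change of -1.31 (standard error 0.420, edgeR adjusted p = 0.370) and Cd55 one of -1.27 (standard error 0.451, edgeR adjusted p = 0.404). Nt5e was higher in HET, by 0.64 (standard error 0.271, edgeR adjusted p = 0.456). No gene of the 9 passed an adjusted p of 0.1 in edgeR, against 0.00697% of all genes (1 gene, Hnrnpll). With DESeq2 3 of the 9 passed, Klf2 (adjusted p = 0.00532), Hhex (0.0515) and Cd55 (0.0825), out of 505 genes that passed in all.

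The other 5 genes overlapped between HET and KO, with log2 fold changes of -0.28 for Fcer2a (standard error 0.166), -0.77 for Cd38 (0.459), -0.55 for Tle3 (0.349), -0.25 for Ski (0.708) and -0.22 for Il9r (0.275). In all, 8 of the 9 were below 0, against 56.3% of all genes, with a median of -0.545 against -0.0679. Across the fits that each left out 1 library, Klf2 stayed between -1.80 and -1.36, Hhex between -1.46 and -1.07, and Cd55 between -1.42 and -1.06. With the replicate number as a block they were smaller, at -1.31, -0.66 and -0.72.

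Between WT and HET, 8 of the 9 genes did not overlap, but so did 48% of all genes with 2 libraries in each group. The log2 fold changes were 1.84 for Klf2 (standard error 0.494), 1.24 for Hhex (0.481), 1.58 for Cd55 (0.521) and 2.23 for Ski (0.884), all with an unadjusted p under 0.05 in edgeR, against 6.42% of all genes, and with adjusted p-values of 0.709 to 0.738. They were 0.67 for Tle3 (standard error 0.415), 0.60 for Cd38 (0.538), 0.43 for Fcer2a (0.200), 0.40 for Il9r (0.332) and -0.55 for Nt5e (0.344). In edgeR 0 of the 9 had an adjusted p under 0.1, against 0.00697% of all genes. This count depended on the fit. DESeq2 called Klf2 (adjusted p = 0.0324), as 1 of many genes, whose count is given in the last section. With the 4 libraries of the 2 groups alone, edgeR called Klf2, Hhex and Cd55 (adjusted p = 0.00483, 0.0424 and 0.0320) among 523 genes. The log2 fold change of Ski was 1.44 without WT replicate 2 and 0.64 with limma on log2(TPM + 1). With a term for the level of Y-linked genes those of Klf2, Hhex and Cd55 were 2.91, 2.35 and 2.90. Between WT and HET that level goes with genotype, so the term was set mostly by the KO libraries and these values cannot separate the 2. Without KO replicate 6 in the fit Klf2 was called, with an edgeR adjusted p of 0.0871. HET against KO and WT against HET share the HET libraries, so their values are not independent.

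Sums of myeloid, T cell and erythroid markers were lower in HET than in WT, and all but the erythroid sum overlapped with KO. The plasma cell sums, at 2033 and 1908 CPM in HET and 1908 to 2688 CPM in KO, overlapped as well. In HET the marginal zone sums (732 and 702 CPM) and the follicular dendritic cell sums (117 and 131 CPM) lay inside the KO range. The 10 myeloid markers summed to 82.7 and 87.1 CPM in HET, to 444 to 565 CPM in WT and to 64.7 to 751 CPM in KO. The 10 T cell markers summed to 197.3 and 198.6 CPM in HET, to 271.9 to 275.3 CPM in WT and to 184.1 to 283.0 CPM in KO, and the 15 germinal center markers to 6141 and 6251 CPM in HET against 4627 to 4901 CPM in WT. All 10 markers of each of the myeloid and T cell lists were detected above 1 CPM in at least 1 library, Lyz2 at 22.7 to 522.4 CPM and Cd3e at 1.59 to 18.0 CPM. The 6 erythroid markers summed to 38.8 and 35.5 CPM in HET, below all other libraries at 44.8 to 96.5 CPM. Hba-a2, 1 of its globin genes, had a log2 fold change of -3.52 in HET against KO, and the plasma cell marker Sdc1 one of -2.35. KO replicate 1 was close to HET in the myeloid and germinal center sums, at 84.3 and 6292 CPM, but had the highest T cell sum, 283.0 CPM. That sum did not follow Cd3e and Cd3d, which at 7.40 and 8.60 CPM were below both WT libraries and above both HET libraries. In KO replicate 1 Klf2 was at 86.4 CPM and Cd55 at 45.9 CPM, above both HET libraries. Hhex at 18.6 CPM was the lowest of KO, and Tle3 at 12.7 CPM was, like Il9r, inside the HET range. KO replicate 2 had a myeloid sum of 64.7 CPM, under both HET libraries. KO replicate 3 had a T cell sum of 184.1 CPM, also under both. Its Cd3e and Cd3d, at 5.45 and 6.75 CPM, were above both HET libraries. The part of these markers in the values of the 9 genes was not tested. Klf2 was at 84.2, 133.4 and 225.5 CPM in KO replicates 3, 4 and 6, which were low in Y-linked genes. It was at 86.4, 90.0 and 60.3 CPM in replicates 1, 2 and 5, which were high in them. Whether the level of Y-linked genes bears on the 9 genes was not tested. With a term for the level of Y-linked genes the log2 fold changes of HET over KO were -2.20 for Klf2, -1.86 for Hhex, -1.91 for Cd55 and 1.08 for Nt5e, again with 0 of the 9 passing an adjusted p of 0.1 in edgeR. In sorted bulk cells, fewer cells of a type and less RNA per cell cannot be told apart.

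**Figure D3:**
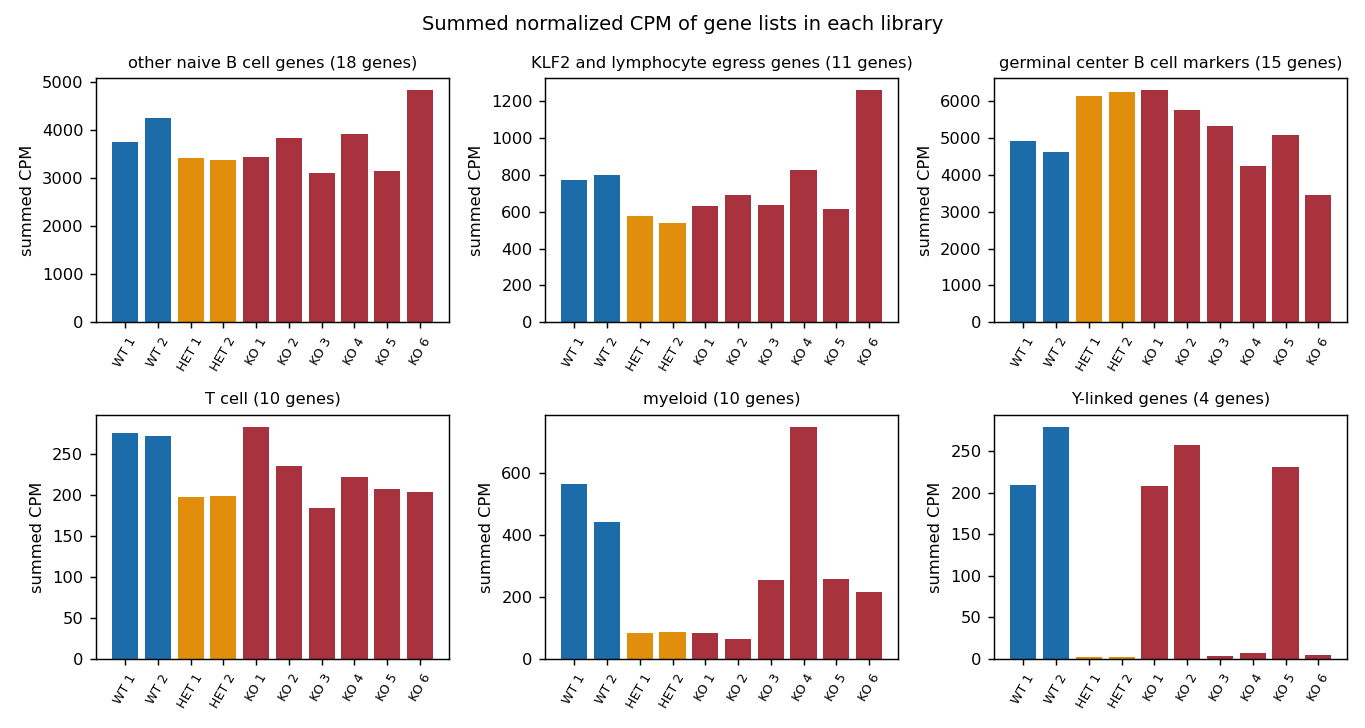
Summed normalized CPM (y axis, linear from 0) of 6 gene lists in each of the 10 libraries (x axis, colored by genotype). The HET libraries are low for the KLF2 and egress genes, at 538 and 577 CPM, and near 0 for the 4 Y-linked genes, and KO replicate 6 has the highest egress sum, 1260 CPM, and the lowest germinal center sum, 3440 CPM.

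KO replicate 6 was the mirror of HET for several of the 9 genes. Against the mean of the other 5 KO libraries it was 2.80-fold for Cd38, 2.48-fold for Klf2, 2.14-fold for Hhex, 2.03-fold for Tle3 and 1.80-fold for Cd55, and it was 0.469-fold for Nt5e and 0.616-fold for Il9r. Fcer2a, at 0.894-fold, and Ski, at 0.981-fold, were not raised in it. Of the 9 genes 4 were highest in this library, as were 19.7% of all genes tested, and 5 were lowest in a HET library, as were 21.4%. In the same library 12 of the 18 other naive B cell genes and 8 of the 11 KLF2 and egress genes were highest. Of the 15 germinal center markers 11 were lowest there, as were 21.9% of all genes tested. The 7 marginal zone markers summed to 977.7 CPM in it against 533.4 to 749.4 CPM in the others, with 4 of 7 highest there. Of the 8 plasma cell markers 4 were highest there, Sdc1 and Prdm1 at 29.0 and 31.4 CPM among them, and 1 was lowest. The plasma cell sum was not the highest, at 2460 CPM against 2688 CPM in KO replicate 1. Without it the KO means were 90.9 ± 26.5 CPM for Klf2, 31.0 ± 11.3 CPM for Hhex, 82.0 ± 22.9 CPM for Cd38 and 15.6 ± 3.22 CPM for Tle3 (SD, n = 5).

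Klf2, Hhex and Cd55 varied together across libraries, and Nt5e varied the other way. Over the 10 libraries, and on log2(CPM + 1), Pearson's r was 0.935 between Klf2 and Cd55, 0.922 between Klf2 and Hhex and 0.911 between Hhex and Cd55, and without KO replicate 6 it was 0.929, 0.882 and 0.903. Cd38 and Tle3 had r = 0.877, or 0.713 without that library. Nt5e ran against them, at -0.864 with Klf2 (-0.823 without KO replicate 6) and -0.765 with Cd55 (-0.765). Other values rested on the 1 library: Cd38 and Nt5e went from -0.716 to -0.230 when it was left out, and Tle3 and Il9r from 0.0368 to 0.784. Fcer2a came closer to Klf2 and Cd55 without it, with r going from 0.610 to 0.854 for Klf2 and from 0.695 to 0.851 for Cd55. For Nt5e its r went from -0.376 to -0.813. These are descriptions of 10 libraries that share genotype groups, not tests.

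**Figure D4:**
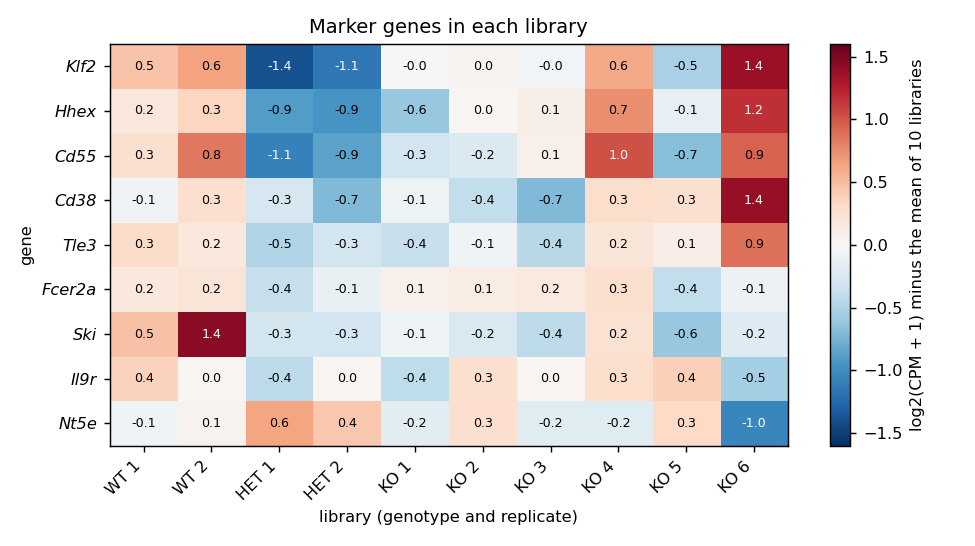
Log2(CPM + 1) minus the mean over the 10 libraries (color and printed value) for each of the 9 genes (rows) in each library (columns). Klf2, Hhex and Cd55 share blue cells in both HET libraries and red cells in KO replicate 6, where Nt5e has the reverse.

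Among 8587 genes with a mean of at least 10 CPM, the closest in pattern to Klf2 was Shisa5 (r = 0.981, n = 10), and without KO replicate 6 Shisa5 (0.979, n = 9) and then Klf3 (0.968). Hhex was most like Ifi203 (0.973) and Ccr7 (0.973), which were also closest without that library. Cd55 was most like Cnn3 (0.977) and Ighd (0.967), both again at the top without it (0.981 and 0.967). Tle3 was most like Bank1 (0.977), Cd38 like the class I gene H2-Q7 (0.944), which has near-identical relatives, and Ski like Il4i1 (0.943), each within the closest 3 in both sets of libraries. For Nt5e, Il9r and Fcer2a the closest genes were Nelfb (0.969), Klhl21 (0.930) and Heca (0.920), and none of the closest 3 was kept when KO replicate 6 was left out.

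The sequences before the start sites of Klf2, Hhex and Cd55 are shown because these genes varied together and the deleted factor is known to bind CpG sites. They are from RefSeq on GRCm38.p6, 5′ to 3′ on the strand of the gene and ending before the annotated transcript, with every CG in capitals. The window is chr8:72318812-72319032 on the plus strand for Klf2 (221 bases), chr19:37434591-37434809 on the plus strand for Hhex (219 bases) and chr1:130462745-130462994 on the minus strand for Cd55 (250 bases).
Klf2: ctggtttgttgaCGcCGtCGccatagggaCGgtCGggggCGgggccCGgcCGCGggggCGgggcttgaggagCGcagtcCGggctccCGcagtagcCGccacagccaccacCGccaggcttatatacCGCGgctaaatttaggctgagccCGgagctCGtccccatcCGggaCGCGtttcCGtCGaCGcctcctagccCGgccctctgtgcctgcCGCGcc
Hhex: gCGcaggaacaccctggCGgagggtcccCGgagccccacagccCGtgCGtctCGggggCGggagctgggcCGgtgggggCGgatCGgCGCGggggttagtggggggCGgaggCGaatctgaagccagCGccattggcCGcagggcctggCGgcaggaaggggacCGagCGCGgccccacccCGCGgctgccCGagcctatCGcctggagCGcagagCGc
Cd55: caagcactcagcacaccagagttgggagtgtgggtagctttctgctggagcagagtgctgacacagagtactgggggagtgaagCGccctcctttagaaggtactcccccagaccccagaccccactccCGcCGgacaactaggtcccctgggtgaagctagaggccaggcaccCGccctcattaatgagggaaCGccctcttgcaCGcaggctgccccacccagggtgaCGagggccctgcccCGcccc

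In the 250 bases before the RefSeq start there were 29 CG in Klf2, 32 in Hhex and 8 in Cd55, more than in 93.2%, 95.4% and 57.0% of 32851 promoters, whose median was 6. The genes that varied together thus did not share a high CG number. Nt5e, of the inverse pattern, had 21, Tle3 17 and Ski 53, while Il9r had 5, Cd38 1 and the 3 RefSeq starts of Fcer2a 3, 2 and 2. The windows of Nt5e and Cd38, and those of the last 2 starts of Fcer2a, lie inside the gene as Gencode places it. At least 1 CG was present in 92.1% of all promoters. The letters CCACCC, a box of the kind KLF factors bind, or GGGTGG on the other strand, occurred in 28.1% of all promoters and in 6 of the 9 genes: Klf2 (past the end of the stretch shown), Hhex, Cd55, Cd38, Il9r and Fcer2a. Methylation was not measured here, and a match of letters is not a bound site.

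The genes lie on 7 chromosomes in GRCm38. Klf2 (ENSMUSG00000055148.7) spans 72319033 to 72321656 on chromosome 8, Hhex (ENSMUSG00000024986.11) 37434810 to 37440731 on chromosome 19, Cd55 (ENSMUSG00000026399.12) 130439027 to 130462744 on chromosome 1 and Nt5e (ENSMUSG00000032420.8) 88327197 to 88372092 on chromosome 9. Nt5e and Tle3 share chromosome 9 with Zbtb38, at distances of 8.37 and 35.3 Mb. An unquantified antisense gene, Gm16083, overlaps the 5′ end of Cd55, and strand was not marked in the sources used here, so its reads could not be separated. Hhex had 2 quantified transcripts, and ENSMUST00000025944.8 held 49.9% and 52.1% of its counts in WT, 56.4% and 85.7% in HET and 39.6% to 62.2% in KO. Transcripts of a gene share exons, so this split is an estimate. Cd55 used ENSMUST00000027650.12 for 82.0% to 93.3% of its counts across the 10 libraries, and Klf2, Cd38 and Nt5e had 1 quantified transcript each.

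The other genes of these programs are given by list. Of 18 other naive B cell genes, 14 were lower in HET than in KO, 5 of them with an unadjusted p under 0.05 in edgeR, against 4.76% of all genes called lower, with a median log2 fold change of -0.518. Among these were the IgD gene Ighd (-1.26), the homing receptor Ccr7 (-1.73), the egress receptor S1pr1 (-1.20) and the positioning receptor Gpr183 (-1.23), named after their values were seen. Of 11 KLF2 and lymphocyte egress genes, which include 4 of these 5, 9 were lower in HET and 6 at an unadjusted p under 0.05, among them also Klf3 (-1.74) and the integrin gene Itgb7 (-1.13), with a median of -1.13. Of 14 other memory B cell genes 10 were lower in HET, 4 at an unadjusted p under 0.05: Ccr6 (-1.46), Tlr7 (-1.36), Zbtb32 (-1.50) and Fcrl5 (-1.46). The germinal center markers went the other way, with 14 of 15 higher in HET, 4 of them (Gna13, Mki67, Efnb1 and Plxnb2) at an unadjusted p under 0.05 against 5.46% of all genes called higher, and a median of 0.338. The fall in HET was not particular to the B cell lists. Lower in HET were 9 of 10 T cell genes (median -1.09), 9 of 10 myeloid (-1.55), 7 of 8 plasma cell (-0.413) and 6 of 6 erythroid genes (-3.19). So were 3 of the 4 tested follicular dendritic cell genes (-2.37) and 3 of 7 marginal zone genes (0.00660). In edgeR no gene of these lists passed an adjusted p of 0.1. With DESeq2 they were not counted by list.

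Between WT and KO the same lists were close to balance. Of the 18 naive genes 11 were higher in WT and 7 lower (median 0.0594), of the 11 egress genes 7 and 4 (0.0904), of the 14 memory genes 8 and 6 (0.0271) and of the 15 germinal center markers 8 and 7 (0.0205). An unadjusted p under 0.05 was reached by the IL-4 receptor gene Il4ra (257 CPM in WT and 193 in KO, a log2 difference of 0.41 with a standard error of 0.174) and by the memory genes Cd27 (7.28 against 2.99 CPM) and Tlr7 (15.2 against 8.53 CPM). Their edgeR adjusted p was 0.999. For controls against KO, 5 of 18 naive, 2 of 11 egress, 7 of 14 memory and 12 of 15 germinal center genes were higher in controls. The list medians were -0.205, -0.373, -0.0286 and 0.123, against -0.0233 for all genes. In that comparison Il4ra had a log2 fold change of 0.36 (standard error 0.129), and Zbtb32 (-1.04) and Bhlhe41 (-1.19) were the memory genes at an unadjusted p under 0.05.

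**Figure D5:**
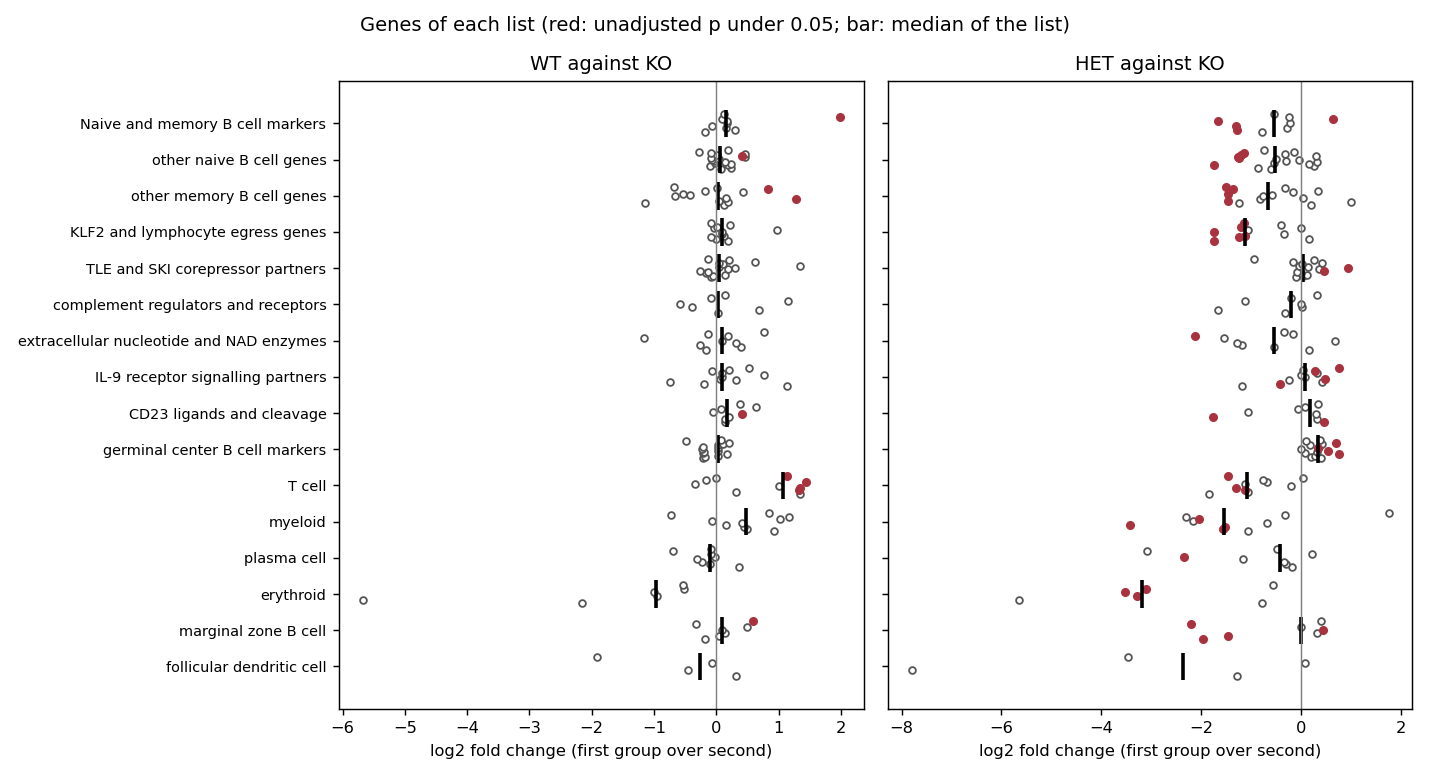
Log2 fold change (x axis, each panel on its own scale) of every tested gene of each list (y axis) for WT against KO and HET against KO. Each circle is a gene, red circles have an unadjusted p under 0.05 in edgeR and bars are list medians. The naive, memory and egress lists have medians of 0.0271 to 0.0904 in WT against KO and of -1.13 to -0.518 in HET against KO, where the germinal center markers are at 0.338. In HET against KO the T cell, myeloid and erythroid lists are at -1.09, -1.55 and -3.19.

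Partners of single members are given for controls against KO, where 6.3% of all genes had an unadjusted p under 0.05 and 1.52% did not overlap. The median log2 fold change of all genes there was -0.0233. It was 0.122 for the TLE and SKI partners, 0.122 for the IL-9 receptor partners and 0.267 for the CD23 list. Of 15 TLE and SKI corepressor partners, 10 were higher in controls than in KO, and the SKI relative Skil (51.5 ± 15.5 CPM in controls and 32.7 ± 6.29 in KO, a log2 difference of 0.65 with a standard error of 0.207) and Tle4 (0.23) had an unadjusted p under 0.05 with edgeR adjusted p-values of 0.744. Of 11 IL-9 receptor signaling partners, 9 were higher in controls, with Stat5b (133.5 ± 13.8 against 85.7 ± 24.5 CPM, log2 fold change 0.64) and the kinase gene Jak1 (0.28) higher and the common chain gene Il2rg (-0.31) lower at an unadjusted p under 0.05. Every control library was above every KO library for Skil and for Stat5b. Of 8 genes of CD23 ligands and cleavage, 6 were higher in controls, Il4ra and the protease gene Adam10 (0.30) at an unadjusted p under 0.05. WT and HET did not contribute alike to these pooled values. In WT against KO and in HET against KO the log2 fold changes were 0.06 and 0.47 for Jak1, 0.13 and 0.46 for Adam10 and 0.30 and 0.94 for Skil. They were 0.52 and 0.75 for Stat5b, 0.20 and 0.27 for Tle4, -0.19 and -0.43 for Il2rg and 0.41 and 0.30 for Il4ra. None of the 6 tested complement genes and none of the 8 tested nucleotide and NAD enzymes reached an unadjusted p under 0.05 between controls and KO in edgeR, with medians of -0.139 and -0.0730. Cd55b, the close paralog of Cd55, was under 1 CPM in all 10 libraries.

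Of the remaining marker lists, the T cell list was higher in WT than in KO for 8 of 10 genes (median 1.08), 4 of them at an unadjusted p under 0.05 against 2.19% of all genes, and the myeloid list for 8 of 10 (0.469) with 0 at that level in edgeR. Plasma cell markers were higher in WT for 1 of 8 (-0.0944) and erythroid markers for 0 of 6 (-0.972), the latter including globin genes that are near-identical copies. Marginal zone markers were higher in WT for 5 of 7 (0.0966) and the 4 tested follicular dendritic cell markers for 1 (-0.256).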

How the data were processed

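Germinal center B cells of 10 mice (2 WT, 2 HET, 6 KO by the genotype label, replicates by title) were measured by RNA-seq. The study prepared SMART-Seq v4 cDNA, sequenced it as paired ends and quantified it with Salmon (0.9.1 per the submitters' processing notes, which also list DESeq2 2.11.40.6) against Gencode vM17. The authors deposited, for each of 64019 transcripts, an estimated count, which is not normalized, and a TPM value, which is scaled for effective length and library total. Of the estimated counts 46.7% were not whole. Salmon divides shared reads among transcripts by estimation, so gene sums are firmer than transcript shares.

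Here estimated counts were summed per gene and rounded. Fits used edgeR 4.0.16 (quasi-likelihood, TMM factors of 0.923 to 1.07, filterByExpr, Benjamini-Hochberg at 0.1 over all genes tested) in R 4.3.3. WT against KO was fitted on its own libraries, the other comparisons on all 10. CPM is TMM-normalized. Alternatives were DESeq2 1.42.0, limma 3.58.1 on log2(TPM + 1), DESeq2's size factors, no filter, at least 10 counts in every library, length-scaled counts, a replicate block, other sets of libraries, each library left out in turn and, chosen after seeing the data, a term for the level of Y-linked genes. Scripts were tested on simulated data. The 9 genes, the lists and the tests were chosen with earlier results of these data known. Genes outside the 9 were named by rule: up to 3 per list at an unadjusted p under 0.05 in either KO comparison, the first 2 of each marker list and the 3 most like each of the 9, of which those a result turns on are printed. List genes named for HET against KO, Bhlhe41 and Hnrnpll were named after their values were seen. Positions are from Gencode vM21, and promoters from RefSeq, where all 9 genes matched. Mice are the replicates, and no library pair within a genotype was as close as sampling noise (chi-square per gene of at least 26.4). A count of 0 would allow 3 counts, for counting error only. Xist and Fdcsp were not analysed here, and some genes of the lists are not reported by name.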

Additional observations from a re-analysis of the deposited data

Results flagged for a closer look

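Of 19 sets of KO or control libraries checked for a value far from the rest, 1 stood out, where 0.95 would be expected by chance. KO replicate 6 was at 79.3 on the first principal component of all genes tested, and its gap to the nearest KO library made up 0.833 of the range of the 6 KO libraries, more than Dixon's limit for 6 values. For none of the 9 genes did a single KO or control library pass that limit. The median correlation of KO replicate 6 with the other libraries was 0.954, against 0.971 to 0.983 for the others, and 13886 genes had counts in it, the fewest of the 10 libraries, whose highest number was 15554. The cause was not tested.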

How the results depend on the processing

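With 2 libraries in a group the spread was estimated mostly from KO. Members called stayed at 0 in every alternative for WT against KO and for controls against KO. For HET against KO, DESeq2 called 3, and for WT against HET DESeq2 called 1, the replicate block 2 (Klf2 and Cd55, adjusted p = 0.0187 and 0.0418), the fit of the 2 groups alone 3, and the fits without 1 library 0 to 1. No sign of the 9 genes turned between HET and KO or between WT and HET. The causes of the changes below were not tested.

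Over all genes, the count at an adjusted p under 0.1 was 1 in each comparison. For WT against KO it was 10 with DESeq2, 0 with length-scaled counts (325 at an unadjusted p under 0.05), 0 with limma (437), 6 with the replicate block, 2 in 1 fit of all libraries, 0 with the Y-linked term (422) and 0 to 2 without 1 library. For controls against KO it was 25 with DESeq2, 0 with length-scaled counts (838), 0 with limma (930), 0 with the replicate block (1104) and 1 to 2 without 1 library. For HET against KO it was 505 with DESeq2, 2 with no filter, 0 with at least 10 counts (1251), 4 with the replicate block, 0 with the 2 groups alone (1247), 2 with the Y-linked term and 0 to 5 without 1 library. For WT against HET it was 168 with DESeq2, 0 with at least 10 counts (695), 66 with the replicate block, 523 with the 2 groups alone, 2 with the Y-linked term and 0 to 16 without 1 library.

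Signs turned in WT against KO and in controls against KO. For WT against KO, with limma, the replicate block and the Y-linked term, Cd38 (-0.18) went to 0.12, 0.35 and 0.18 and Hhex (-0.07) to 0.20, 0.58 and 0.49. Nt5e (0.10) went to -0.06 with the block and -0.18 with the Y-linked term. Cd55 (0.30) went to 0.83 and 0.98 with these, Klf2 (0.18) to 0.53 and 0.70, and 2 of the 9 genes then had an unadjusted p under 0.05 in place of 1. Without 1 library the ranges were -0.35 to 0.20 for Cd38, -0.20 to 0.18 for Hhex, -0.03 to 0.20 for Nt5e, -0.01 to 0.34 for Il9r (below 0 without WT replicate 1) and -0.02 to 0.57 for Cd55 (below 0 without WT replicate 2). For controls against KO, limma gave 0.10 for Fcer2a, 0.09 for Tle3 and 0.05 for Il9r, and the replicate block gave 0.09 for Cd38, 0.08 for Hhex, 0.18 for Tle3, 0.09 for Il9r and 0.25 for Cd55. Without 1 library the ranges were -0.13 to 0.05 for Fcer2a, -0.32 to 0.06 for Tle3 and -0.15 to 0.12 for Il9r.

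Same-numbered libraries of different genotypes had correlations of -0.00797 to 0.127 in their deviations from the group means. With so few libraries in WT and in HET, the deviations of replicates 1 and 2 mirror each other. These values therefore cannot decide whether the replicate numbers pair the mice. At this depth Ski had the fewest counts of the 9 genes, 11 to 135 per library.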
